A study of Mus musculus with 6 samples.

Results

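The genes described here are 6 matrix metalloproteinases (Mmp2, Mmp3, Mmp7, Mmp11, Mmp14 and Mmp23) and the 4 tissue inhibitors of metalloproteinases (Timp1, Timp2, Timp3 and Timp4). They were taken by name, 10 of the 24077 genes of the single-cell table, and all 10 are also among the 30828 genes counted in each tissue section. Uteri came from 12-month-old CD-1 mice whose neonatal treatment, given under the skin from day 1 to day 5, was either the vehicle corn oil (CO) or the synthetic estrogen diethylstilbestrol (DES) at 1 mg/kg/day. Control mice were chosen in estrus, and the DES-exposed mice were in persistent estrus. Single cells, released with trypsin, were measured in 1 CO library that pooled 2 mice and 1 DES library that pooled 4 mice. Spatial RNA was measured in 2 CO sections (CO A and CO B) and 2 DES sections (DES A and DES B) from 1 mouse each, and the DES sections were chosen because they held adenocarcinoma.

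Matrix metalloproteinases are zinc enzymes that cut collagens, proteoglycans and other proteins of the extracellular matrix, and most are made as inactive precursors that must be cleaved before they work. The inhibitors bind the active enzymes and block them, and TIMP2 also takes part in the activation of pro-MMP2 by the membrane protease MMP14. In the uterus these enzymes and inhibitors are known for the breakdown and rebuilding of the endometrium through the reproductive cycle, and several of them for the spread of carcinomas.

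The members lie on 8 chromosomes, and Mmp3 and Mmp7 share a cluster of protease genes on chromosome 9. In GRCm38, Mmp3 covers chr9:7445822-7455975 and Mmp7 chr9:7692090-7699585, both on the + strand, and the 236.1 kb between them hold 5 other metalloproteinase genes (Mmp1a, Mmp10, Mmp8, Mmp27 and Mmp20) and 0 other protein-coding genes. The promoters of this neighbouring pair are shown because the pair was read in different cells, as described below. RefSeq windows from 250 bases before to 50 bases after the start were found for 9 of the 10 members. They were searched on both strands for the AP-1 motif TGANTCA, the TCF motif CTTTGA and the TATA motif TATAAA. The AP-1 letters were present in Mmp3 and Mmp7 alone among these members, starting 46 bases before the start of Mmp3 and 63 bases before the start of Mmp7, and were present in 7.808% of all 32851 windows. Capitals mark the AP-1 letters in the 5′ to 3′ sequences from GRCm38.p6, chr9:7445572-7445871 (+) and chr9:7691840-7692139 (+).
Mmp3: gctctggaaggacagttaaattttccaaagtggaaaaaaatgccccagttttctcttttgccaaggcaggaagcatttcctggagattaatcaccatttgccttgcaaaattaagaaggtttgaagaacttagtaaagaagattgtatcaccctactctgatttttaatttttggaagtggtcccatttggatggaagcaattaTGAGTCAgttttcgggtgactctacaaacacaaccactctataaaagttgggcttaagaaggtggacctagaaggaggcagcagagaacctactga
Mmp7: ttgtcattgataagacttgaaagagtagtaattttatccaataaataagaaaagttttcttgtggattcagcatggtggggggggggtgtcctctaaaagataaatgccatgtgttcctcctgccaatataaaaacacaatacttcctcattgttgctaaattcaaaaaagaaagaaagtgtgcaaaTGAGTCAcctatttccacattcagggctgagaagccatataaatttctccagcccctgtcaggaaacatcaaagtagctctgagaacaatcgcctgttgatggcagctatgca
A second RefSeq window of Mmp7 (chr9:7692091-7692390, +) held no AP-1 letters. TATAAA was found in the windows of Mmp3 and Mmp7 (13.62% of all windows) and CTTTGA in those of Mmp7 and Timp1 (5257 windows). A match says only that these letters are present.

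The CO library held 32387 cells and the DES library 16312 cells, of which 12253 and 9701 carry a cell type from the authors. The libraries share 180 cell barcodes, and no ratio given here moved outside its counting interval without those cells, an alternative chosen after seeing the data. In the authors' types the defining markers of mesothelial cells (Msln, Upk3b and Lrrn4) summed to 2103 counts scaled to the same total in every group of cells or spots (CPM) in CO and 2210 CPM in DES, and stromal markers in the CO stromal cells to 3704 CPM. The authors' Stmn1-hi type, 22 cells of CO, held 1705 CPM of the mesothelial and 144 CPM of the stromal markers. The cells labelled lymphocytes in CO held 3328 CPM of myeloid markers against 814 CPM of lymphocyte markers, so the label is kept here only as a name. DES stroma is represented by 1 cell, so the stroma can be compared in sections only. The sections held 9117099 to 12506177 unique molecular identifiers (UMIs), and a spot covers several cells.

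Among single cells the proteases fell into a mesothelial and stromal group, an epithelial gene (Mmp7) and a stromal gene (Mmp11), and the 3 inhibitors that were readily detected were highest outside the epithelium. All cell levels are CPM, the UMIs of a gene scaled to the summed UMIs of the cells named, with exact Poisson 95% intervals for the counting error alone. Each condition has 1 library, so they carry no test. Mmp2, a gelatinase that digests basement membrane collagen (chr8:92827291-92853420, +), stood in CO at 399 CPM in mesothelial cells (interval 395 to 403), 404 CPM in the small Stmn1-hi group (346 to 469), 342 CPM in the Ctla2a group, 253 CPM in stromal cells and 9.96 CPM in epithelial cells. The first pair in this order had overlapping intervals, and the epithelial level lay below the 28.9 CPM of cells labelled lymphocytes. Mesothelial cells held 86.6% of the Mmp2 UMIs of annotated CO cells and 97.1% of those of annotated DES cells. Mmp3, or stromelysin-1, a broad-range protease, was read mostly in the same cells, with 49.8 CPM in CO mesothelial cells, 26.0 CPM in Stmn1-hi cells (12.97 to 46.48), 19.9 CPM in pericytes (7.98 to 40.9) and 2.98 CPM in stromal cells. Mesothelial cells held 96.7% of its annotated UMIs in CO and 98.2% in DES.

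Mmp14, the membrane protease that activates MMP2 (chr14:54431612-54445364, +), was highest in CO stromal cells at 234 CPM, followed by the Ctla2a group at 149 CPM, and stood at 70.9 CPM in mesothelial and 42.4 CPM in epithelial cells. Its level in pericytes (73.8 CPM, 48.2 to 108) could not be told from that in mesothelial cells. Mmp23, a small membrane-anchored member of the family (chr4:155650655-155653384, -), had the same highest type, with 218 CPM in stromal, 82.6 CPM in mesothelial and 56.5 CPM in epithelial cells. Mmp11, or stromelysin-3, a protease made chiefly by fibroblasts next to epithelium (chr10:75923222-75936496, -), reached 98.7 CPM (93.1 to 105) among the stromal cells of CO, against 31.2 CPM in pericytes, 20.8 CPM in the Ctla2a group, 6.45 CPM in mesothelial and 1.35 CPM in epithelial cells. After each cell was thinned to 3000 UMIs, Mmp11 was read in 23.6% of stromal cells (48.2% unthinned, median 8726.5 UMIs) and in 0.968% of the cells labelled lymphocytes (1.42% unthinned, median 4033 UMIs). In the annotation Timp2 overlaps Cep295nl on the same strand, so reads of this pair could be split or dropped in counting. Mmp7 (AV064505), Mmp11 (Chchd10), Timp1 (Syn1), Timp3 (Syn3) and Timp4 (Syn2 and Gm17482) overlap genes of the opposite strand.

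Mmp7, or matrilysin, a protease that epithelia secrete, was the only member highest in epithelial cells. Its CO level was 96.6 CPM in epithelial cells (94.5 to 98.8) and between 4.56 and 11.3 CPM in the other 9 CO types, whose intervals all lay below the epithelial one. Epithelial cells held 92.2% of the annotated Mmp7 UMIs in CO and 98.4% in DES. After thinning, 15.6% of CO epithelial cells had an Mmp7 UMI (51.2% unthinned, median 23458 UMIs) against 3.23% of cells labelled lymphocytes (4.96% unthinned).

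Of the inhibitors, Timp2 (chr11:118301069-118355740, -) was broad, with 994 CPM in CO mesothelial, 735 CPM in Stmn1-hi, 614 CPM in stromal, 450 CPM in myeloid, 411 CPM in pericytes and 21.3 CPM in epithelial cells, the last below the 106 CPM of cells labelled lymphocytes. Timp3, the inhibitor that stays bound to the matrix and also blocks several ADAM proteases (chr10:86300372-86349506, +), was highest in pericytes at 2159 CPM (2008 to 2318), with 1006 CPM in Stmn1-hi cells and 907 CPM in endothelial cells, a pair whose intervals overlapped, 697 CPM in mesothelial, 232 CPM in stromal and 29.2 CPM in epithelial cells. Timp1, a soluble inhibitor (chrX:20870166-20874735, +), stood at 139 CPM in Stmn1-hi and 112 CPM in mesothelial cells and at 32.2 CPM or less in every other CO type. Timp4 (chr6:115241892-115252205, -) was close to unread, with 31 UMIs in all CO cells and 18 in all DES cells, and is not described further among cells.

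**Figure D1:**
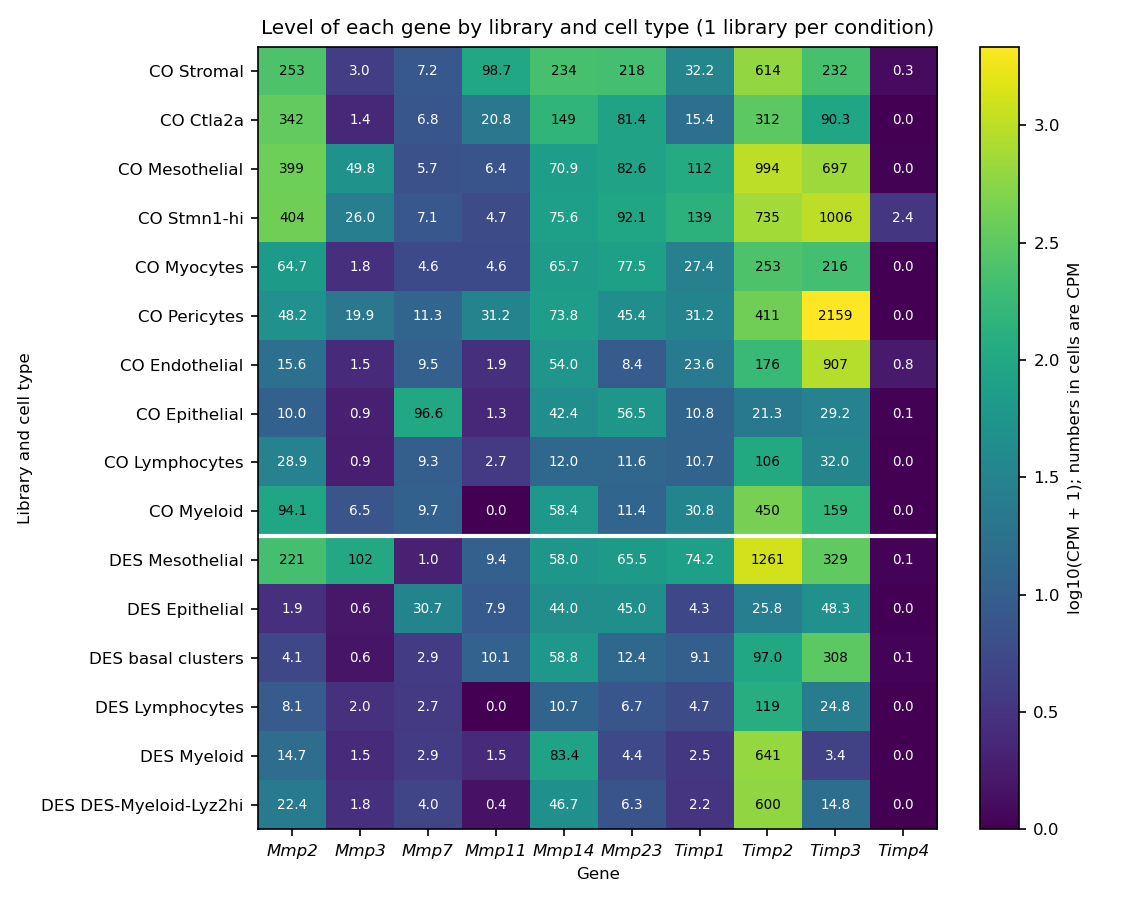
Level of each gene (columns) in each cell type of the CO and DES libraries (rows, split by the white line), with colour giving log10(CPM + 1) and the number in each square the CPM. Mmp7 is brightest in CO epithelial cells (96.6 CPM), Mmp11 in CO stromal cells (98.7 CPM) and Timp3 in CO pericytes (2159 CPM), while the DES rows include no stromal row because 1 such cell was captured.

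Within the CO epithelium Mmp7 was concentrated in glands. The study names CO clusters 3, 8, 13 and 14 as glandular, 13 as mature and the others as developing. It further identifies cluster 14 (28 cells) as glandular progenitors. The 417 of 2583 cells in these gland clusters held 72.3% of the Mmp7 UMIs. Mmp7 stood at 783 CPM in cluster 14 (727 to 843), 751 CPM in cluster 8 (713 to 789) and 669 CPM in cluster 3 (646 to 692), but at 10.1 CPM in cluster 13 (4.62 to 19.2), the lowest of the 15 CO clusters. Clusters 14 and 8 could not be told apart by their intervals. The next cluster was 12, named as stem cells, at 102 CPM (88.03 to 118.5), and the median over the 15 clusters was 31.7 CPM. In the 16 DES clusters Mmp7 ran from 3.30 CPM (cluster 14) to 81.7 CPM (cluster 1, 78.0 to 85.7), so the highest DES cluster was below the 3 developing gland clusters and cluster 12 of CO. Timp3 and Timp2 were also higher in the CO gland clusters as a whole than in the other CO epithelium, at 101 against 20.3 CPM for Timp3 and 42.3 against 18.6 CPM for Timp2. For Timp3 the gland clusters differed among themselves, with 137 CPM in cluster 3 and 110 CPM in cluster 14 against 71.9 CPM in cluster 13 and 23.7 CPM in cluster 8. Mmp14 and Mmp23 went the other way, at 19.1 against 45.3 CPM and 30.3 against 59.7 CPM.

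**Figure D2:**
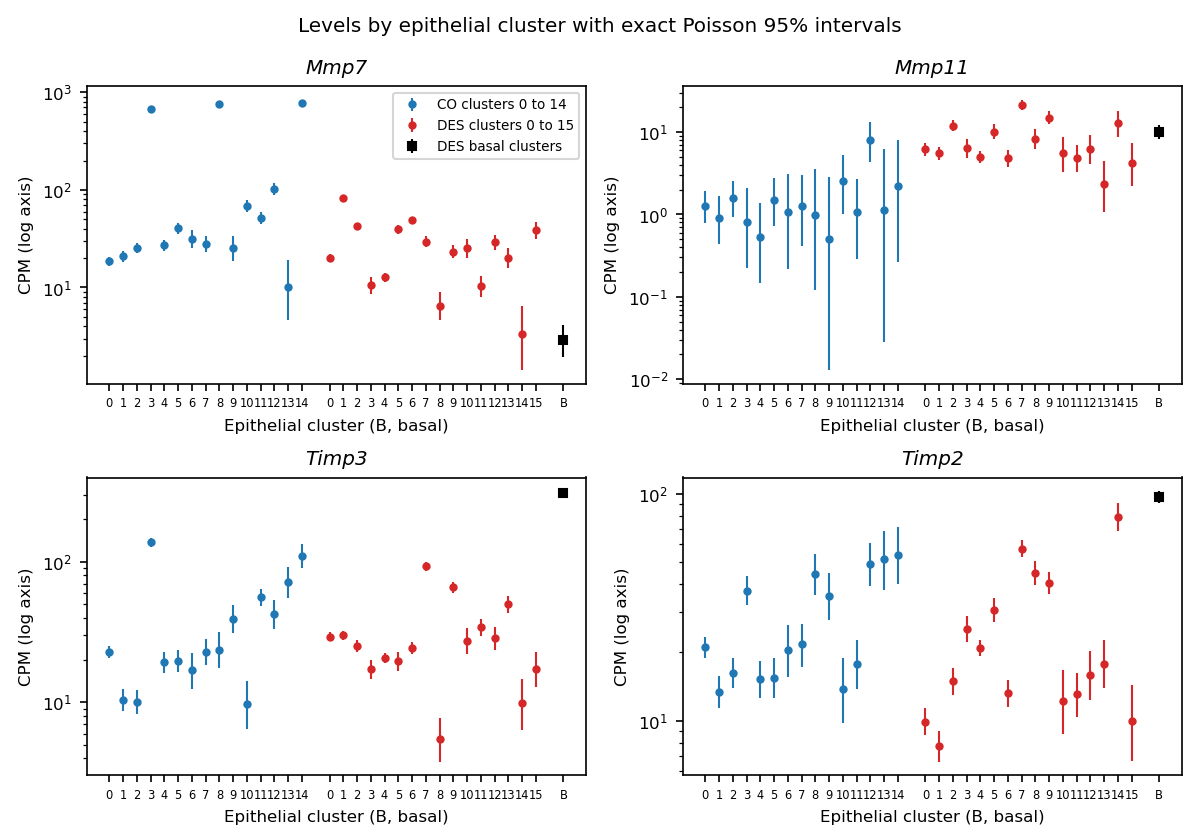
Levels of Mmp7, Mmp11, Timp3 and Timp2 in CPM (log axis) in the 15 CO clusters (blue), the 16 DES clusters (red) and the DES basal clusters (black square), with exact Poisson 95% intervals as bars. CO clusters 3, 8 and 14 stand at 669 to 783 CPM of Mmp7, and the black square is the highest point for Timp3 (308 CPM).

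Between the libraries, non-basal epithelial cells held less Mmp7, Mmp2 and Timp1 and more Mmp11 in DES than in CO. Of the 7 members with a mean of at least 5 CPM over both libraries, 3 were at least 2-fold lower in DES and 0 at least 2-fold higher, against 7.23% and 7.35% of the 9596 genes at that level. Mmp7 stood at 96.6 CPM in CO and 32.7 CPM in DES, a ratio of 0.338 (counting interval 0.326 to 0.350). Without CO clusters 3, 8, 13 and 14, a choice made after seeing the data, the ratio was 1.09, and the study names no separate gland clusters in DES. Mmp2 stood at 9.96 and 1.76 CPM (ratio 0.177) and Timp1 at 10.8 and 3.96 CPM (ratio 0.366), but cells labelled lymphocytes held 28.9 and 8.06 CPM of Mmp2 and 10.7 and 4.70 CPM of Timp1, so the epithelial levels of Mmp2 lay below those of cells labelled lymphocytes, and those of Timp1 lay within the lymphocyte intervals (6.84 to 15.9 CPM in CO and 1.89 to 9.68 CPM in DES). Those cells also held more stromal markers (93.4 and 51.0 CPM) than the epithelial cells (19.0 and 2.21 CPM), and the share of the epithelial values that is free RNA was not tested. Mmp14 (42.4 and 43.2 CPM), Mmp23 (56.5 and 47.3), Timp2 (21.3 and 21.1) and Timp3 (29.2 and 30.5) had ratios between 0.837 and 1.04.

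Mmp11 was the member whose epithelial level was higher in DES. It stood at 1.35 CPM in CO (1.10 to 1.63, 106 UMIs) and 7.80 CPM in DES (7.37 to 8.24, 1279 UMIs), a ratio of 5.80 (4.75 to 7.13), and its mean of both libraries was under 5 CPM, so it is not in the count above. After thinning the share of cells with an Mmp11 UMI was 0.195% of 2562 cells in CO (3.76% unthinned) and 2.15% of 4559 cells in DES (21.1% unthinned). The ratio of thinned levels was 11.2, but it rests on the few CO cells in that share and has no interval. Cells labelled lymphocytes in DES held 0 Mmp11 UMIs, where the floor of 3 counts is 2.01 CPM and the exact upper bound 2.48 CPM. In CO such cells held 2.67 CPM (0.980 to 5.81, 6 UMIs), so the CO epithelial level, the denominator of the ratio, was not above theirs. The markers of stromal cells summed to 19.0 CPM in the CO and 2.21 CPM in the DES epithelial cells. Across DES clusters Mmp11 ran from 2.36 CPM (cluster 13) to 21.7 CPM (cluster 7, 18.8 to 24.9), while the highest CO cluster was 12 at 7.92 CPM (4.33 to 13.3). Epithelial cells held 69.4% of the annotated Mmp11 UMIs in the DES library, against 5.61% in CO where stromal cells held 61.4%, shares that depend on which cells were captured. DES cluster 7 was also the highest non-basal DES cluster for Timp3, at 92.7 CPM (86.6 to 99.2).

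Basal cells, an epithelial type that normally lines the cervix and vagina, appeared in DES as 608 cells in integrated clusters 8 and 11. They held 5528 CPM of Krt14, Trp63 and Krt5, against 85.1 CPM in the non-basal DES epithelium. Timp3 stood in them at 308 CPM (297 to 318) and Timp2 at 97.0 CPM (91.3 to 103), against 30.5 and 21.1 CPM in the non-basal DES cells. Timp3 was 337 CPM in cluster 8 and 260 CPM in cluster 11, and Timp2 106 and 81.9 CPM. Mmp7 was lower in basal cells (2.87 CPM) than in the non-basal DES cells (32.7 CPM), as was Mmp23 (12.4 against 47.3 CPM), and Mmp11 (10.1 CPM) and Mmp14 (58.8 CPM) were somewhat higher.

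Mesothelial cells, which cover the outer surface of the uterus, were plentiful in both libraries (6866 cells in CO and 3837 in DES). Of the 8 members with a mean of at least 5 CPM, 1 was at least 2-fold higher in DES and 1 at least 2-fold lower, against 1.92% and 2.30% of the 10280 genes at that level. Mmp3 stood at 49.8 CPM in CO and 102 CPM in DES, a ratio of 2.04 (1.97 to 2.13), and Timp3 at 697 and 329 CPM, a ratio of 0.472 (0.464 to 0.479). Both were near the 2-fold line, and neither passed it when cells were thinned (1.67 and 0.506) or averaged per cell (1.69 and 0.507). Mmp2 stood at 399 and 221 CPM (ratio 0.553), Timp1 at 112 and 74.2 CPM (0.664) and Timp2 at 994 and 1261 CPM (1.27).

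In sections, UMIs were summed over all spots of a section or over a defined set of spots, and DES was compared with CO in edgeR (quasi-likelihood F-test), adjusting p over all genes tested by the Benjamini-Hochberg method. A p-value here rests on the spread between sections of 1 mouse each, which edgeR estimates for each gene partly from all other genes tested. It thus does not measure the spread of 1 gene on its own. With 2 sections a side an exact permutation test could give no two-sided p below 0.333. In sums of spots, fewer cells of a type and less RNA per cell cannot be told apart. Over whole sections 0 of the 9 members tested passed in either direction, against 2.67% of 14098 genes higher and 2.63% lower. Timp3 and Mmp7 passed with DESeq2, which called 1791 of the 14098 genes (822 higher and 969 lower).

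Timp3 stood over whole sections at 64.5 and 68.7 CPM in CO (A, then B) and at 133 and 130 CPM in DES. Both DES sections lay at nearly the same level above both CO sections, a difference of 0.78 on the log2 scale (SE 0.15, edgeR adjusted p = 0.0597). It passed with DESeq2 (adjusted p = 0.00911) and without CO A (0.0257) or CO B (0.0249), over a range of 0.00911 to 0.499 in all alternatives. Mmp7 stood at 59.8, 29.4, 10.6 and 24.9 CPM in the same order of sections. The CO sections were the higher pair but CO B and DES B were close, and the difference of -1.53 (SE 0.56) had an edgeR adjusted p of 0.185, or 0.0396 with DESeq2. With a section left out it ran from -2.34 (without DES B) to -0.89 (without CO A), and none of these 4 fits passed (adjusted p 0.0576 to 0.586).

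Mmp11 stood at 70.1, 231, 78.5 and 66.1 CPM, so that CO B was high and CO A lay among the DES sections (log2 difference -1.25, SE 0.55, edgeR adjusted p = 0.251). The difference was -1.86 (adjusted p = 0.00547) without CO A and -0.19 (0.398) without CO B, over a range of adjusted p from 0.00547 to 0.672. Mmp3 stood at 1.68, 30.4, 16.7 and 11.2 CPM, with the CO sections on either side of the DES pair. Its log2 difference of -0.39 (SE 1.15) became 2.81 (edgeR adjusted p = 0.0155) without CO B and -1.31 (0.0302) without CO A, so no direction can be read from it. CO B has a tissue fold, and the study describes DES B as limited for identifying clusters.

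The other members overlapped between groups or were close over whole sections. Mmp2 stood at 133, 210, 221 and 116 CPM, Mmp23 at 89.8, 168, 154 and 178 CPM, and Timp2 at 226, 354, 301 and 256 CPM. In each of these genes a CO section lay between or above the DES sections. Mmp14 ranged from 8.88 to 11.6 CPM and Timp1 from 26.1 to 31.7 CPM, and Timp4 had 3 UMIs in the 4 sections together and was not tested. Muscle markers over whole sections were 13345 and 14168 CPM in CO against 3077 and 3458 CPM in DES and basal markers 3.36 and 160 against 9526 and 5644 CPM, and their part in these values was not tested.

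**Figure D3:**
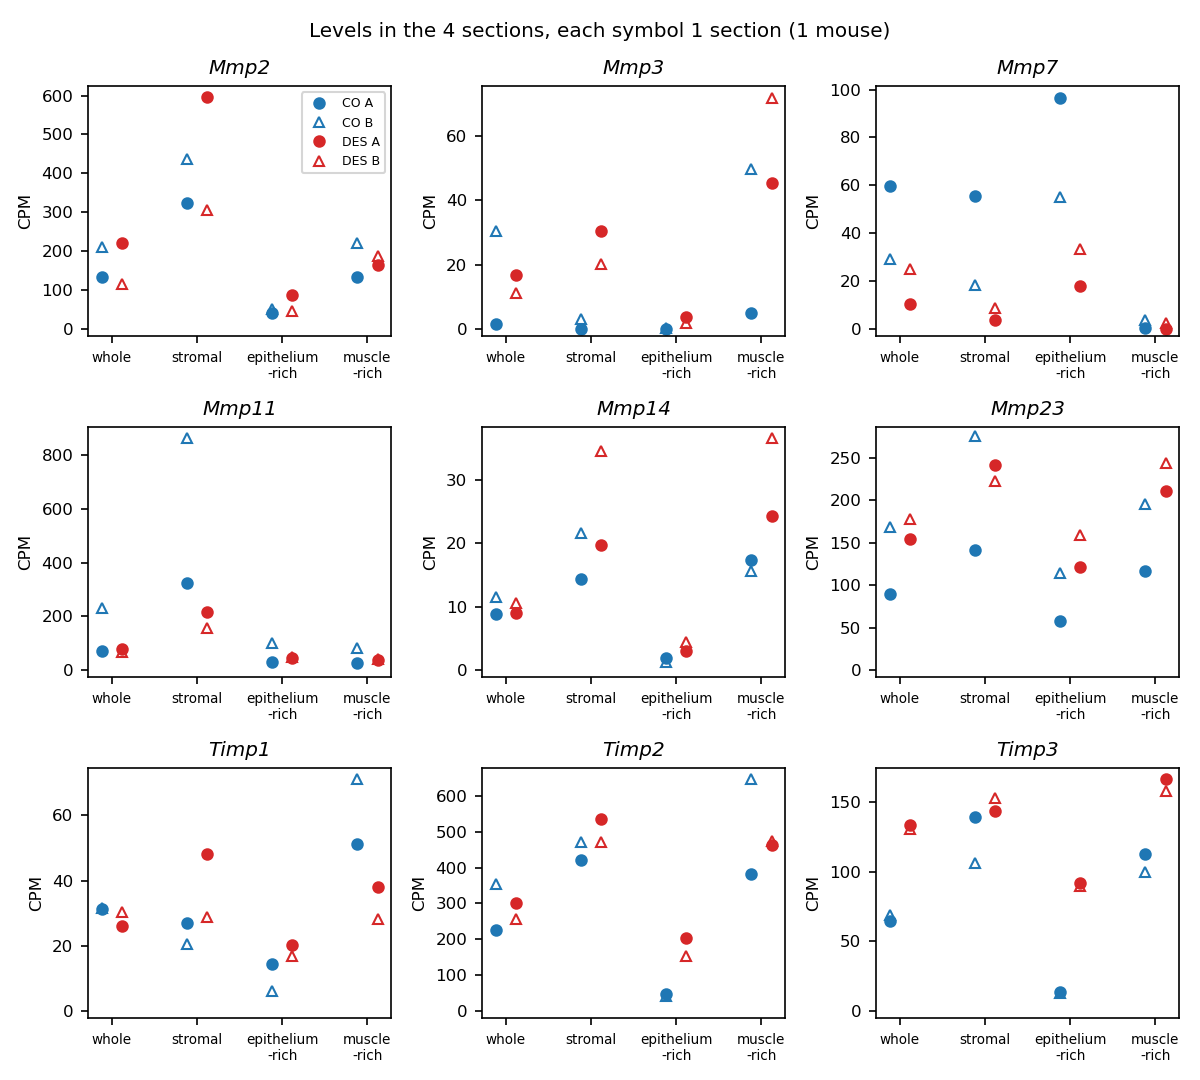
Level in CPM (linear axes from 0) of 9 members in whole sections and in stromal, epithelium-rich and muscle-rich spots, each symbol being 1 section (filled, section A; open, section B; blue, CO; red, DES). In epithelium-rich spots Timp3 lies at 13.3 to 13.5 CPM in CO and 90.1 to 91.8 CPM in DES, whereas Mmp11 in stromal spots spreads from 156 to 863 CPM with CO B highest.

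Epithelium-rich spots were the 15% of each section with the highest score of epithelial markers less the mean of the stromal and muscle scores. There Timp3 and Timp2 rose in DES, 2 of the 7 members tested, and 0 fell, against 3.35% of 11476 genes higher and 1.92% lower. Timp3 stood at 13.5 and 13.3 CPM in the CO sections and at 91.8 and 90.1 CPM in the DES sections. The pairs were far apart and tight, with a log2 difference of 2.47 (SE 0.21, edgeR adjusted p = 0.0102, range 1.32e-08 to 0.0875 in the alternatives). Timp2 stood at 47.5, 43.0, 204 and 155 CPM, again with both DES sections above both CO sections, a difference of 1.69 (SE 0.22, edgeR adjusted p = 0.0219, range 2.73e-05 to 0.110). With CO A or CO B left out 0 genes of the whole table passed in edgeR, with 3549 and 3327 at an unadjusted p under 0.05, and Timp3 missed the threshold without CO A (adjusted p = 0.0875) or CO B (0.0865). Timp2 missed it without CO A (0.0942), CO B (0.108), DES A (0.110) or DES B (0.0588), at log2 differences of 1.51 to 1.83.

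Beside these increases, basal markers in the same spots were 3.78 and 108 CPM in CO against 8844 and 5592 CPM in DES, and myeloid markers 99.1 and 184 against 2258 and 533 CPM. Stromal markers were lower in DES (210 and 123 CPM) than in CO (507 and 333 CPM) and muscle markers ran from 216 to 310 CPM in all 4 sections. The part of basal or myeloid cells in the Timp3 and Timp2 levels was not tested. In single cells, Timp3 was 308 CPM in the DES basal clusters and 3.43 CPM in DES myeloid cells, and Timp2 was 97.0 and 641 CPM. In non-basal epithelial cells Timp3 was 29.2 CPM in CO and 30.5 CPM in DES, and Timp2 was 21.3 and 21.1 CPM.

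Mmp7 in epithelium-rich spots stood at 96.6, 55.0, 18.0 and 33.2 CPM. Both CO sections were above both DES sections, at a log2 difference of -1.85 (SE 0.43), which did not pass in edgeR (adjusted p = 0.0676) and passed with DESeq2 (0.00402), over a range of 0.00402 to 0.291. Mmp11 in these spots stood at 31.0, 101, 44.9 and 48.1 CPM, with the DES sections between the CO sections (log2 difference -0.78, SE 0.53). These spots, which also take in stroma next to the epithelium, thus had no order by group for Mmp11, whose level was higher in DES among the single epithelial cells.

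Stromal spots were those of the 1 cluster per section that the study names as stroma, with 101 and 188 spots for the CO pair and 211 and 132 spots for the DES pair. Here 0 of the 9 members tested passed, against 0.796% of 8914 genes higher and 0.673% lower. With DESeq2, 1 (Mmp11) passed, and 193 of the 8914 genes were called. Mmp11 stood at 322, 863, 218 and 156 CPM. Both CO sections were above both DES sections and CO B was far above the rest, at a log2 difference of -1.72 (SE 0.47, edgeR adjusted p = 0.133, range 8.48e-05 to 0.483). It passed with DESeq2 (0.0348), with the section letter as a replicate block (0.0342), without a filter on low counts (8.48e-05) and without CO A (-2.29, 0.00510). Without CO B it was -0.82 (0.295), and by marker score -1.45 (0.216).

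Mmp7 in stromal spots stood at 55.5, 18.4, 3.94 and 8.66 CPM, highest in CO A. It met the low-count filter through CO alone and so had to differ to be tested. It is given as a description with no fold or test. By marker score the log2 difference of Mmp7 was -1.45 (edgeR adjusted p = 0.519), and the sections overlapped (49.3 and 15.2 CPM in CO, 2.09 and 23.7 CPM in DES). Mmp3 stood at 0, 3.25, 30.5 and 20.2 CPM, from 0, 3, 31 and 7 UMIs. Both DES sections were above both CO sections, but Mmp3 met the low-count filter through DES alone. It too had to differ to be tested, so its levels are a description with no fold or test. When stromal spots were taken by marker score in place of the named clusters, the log2 difference of Mmp3 was -0.06. Mmp2 (324, 436, 597 and 306 CPM), Timp2 (421, 473, 535 and 471 CPM), Timp3 (140, 106, 144 and 153 CPM), Mmp23 (141, 275, 241 and 222 CPM), Mmp14 (14.3 to 34.6 CPM) and Timp1 (20.6 to 48.3 CPM) had log2 differences between 0.10 and 0.72 that did not pass. The named clusters were not alike in makeup, with basal markers at 0 and 90.0 CPM in CO against 7058 and 1998 CPM in DES and muscle markers at 888 and 700 against 2705 and 8369 CPM. Their part in these values was not tested.

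Mmp11 was the member that marked the stroma in every section. The stromal cluster ranked first of 10 clusters for Mmp11 in all 4 sections, a description, since the clusters were formed on these counts. Its level there was 5.52 times (4.66 to 6.52) that of all other spots for CO A and 4.99 times (4.58 to 5.43) for CO B. For the DES sections it was 3.56 times (3.03 to 4.18) and 2.48 times (1.84 to 3.28). The CO ratios were above the DES ratios, but the difference of the enrichments (-0.65 on the log2 scale, SE 0.27) did not pass (edgeR adjusted p = 0.270). Mmp2 was enriched 2.61, 2.30, 3.44 and 2.81 times and Timp2 1.94, 1.38, 1.97 and 1.898 times, in the order CO A, CO B, DES A and DES B. For Mmp2 both DES ratios lay above both CO ratios, but the difference (0.50 on the log2 scale, SE 0.25) did not pass (edgeR adjusted p = 0.457), and for Timp2 the groups overlapped. Timp3 was enriched 2.29 and 1.63 times in CO and 1.09 and 1.18 times in DES (difference -0.63, SE 0.29, edgeR adjusted p = 0.354).

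Mmp3 was the 1 member of 9 whose stromal enrichment changed, against 2.58% of 13542 genes with a higher and 0.783% with a lower enrichment in DES. In CO A none of its 21 UMIs fell in the stromal cluster, where the other spots stood at 1.76 CPM. In CO B the cluster stood at 3.25 CPM against 32.8 CPM in other spots (ratio 0.0990, 0.0203 to 0.292). In DES A it stood at 30.5 against 14.9 CPM (ratio 2.04, 1.33 to 3.05) and in DES B at 20.2 against 10.9 CPM (1.85, 0.727 to 3.95). The intervals lay below 1 in CO B and above 1 in DES A, while those of CO A (0 to 4.11) and DES B took in 1. The difference was 4.48 on the log2 scale (SE 0.75, edgeR adjusted p = 0.000169, range 8.39e-07 to 0.829).

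This result rested on the named clusters and on CO B. It was 0.40 (adjusted p = 0.829) with stromal spots taken by marker score, and 7.48 (0.595) without CO B, when the only CO stromal cluster left held 0 UMIs. The spots outside the stromal cluster also differed in muscle markers, 13927 and 15397 CPM in CO against 3124 and 3279 CPM in DES, and the part of this in the enrichment was not tested. The clusters richest in Mmp3 were cluster 2 of CO A (7.22 CPM) and cluster 3 of CO B (126 CPM), with 44978 and 21295 CPM of muscle markers and 13 and 43.7 CPM of mesothelial markers. In DES they were cluster 9 of DES A (95.8 CPM from 2 UMIs) and of DES B (103 CPM), both led by Cfd and Car3, genes known from fat cells, with 95.8 and 299 CPM of mesothelial markers. Cluster 3 of CO B and both DES clusters were the highest of their sections for mesothelial markers, and in CO A that was cluster 6 (46.9 CPM), second for Mmp3 at 4.69 CPM. The part of mesothelial cells in these levels was not tested. Timp1 had a difference of enrichment of 1.27 (SE 0.44, edgeR adjusted p = 0.133), which was 1.70 (0.00330) by marker score, 1.63 (0.0173) without DES B and 0.56 (0.811) without DES A. DES A was the 1 section with a ratio clearly above 1 (2.07, against 0.851, 0.629 and 0.952 in CO A, CO B and DES B).

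**Figure D4:**
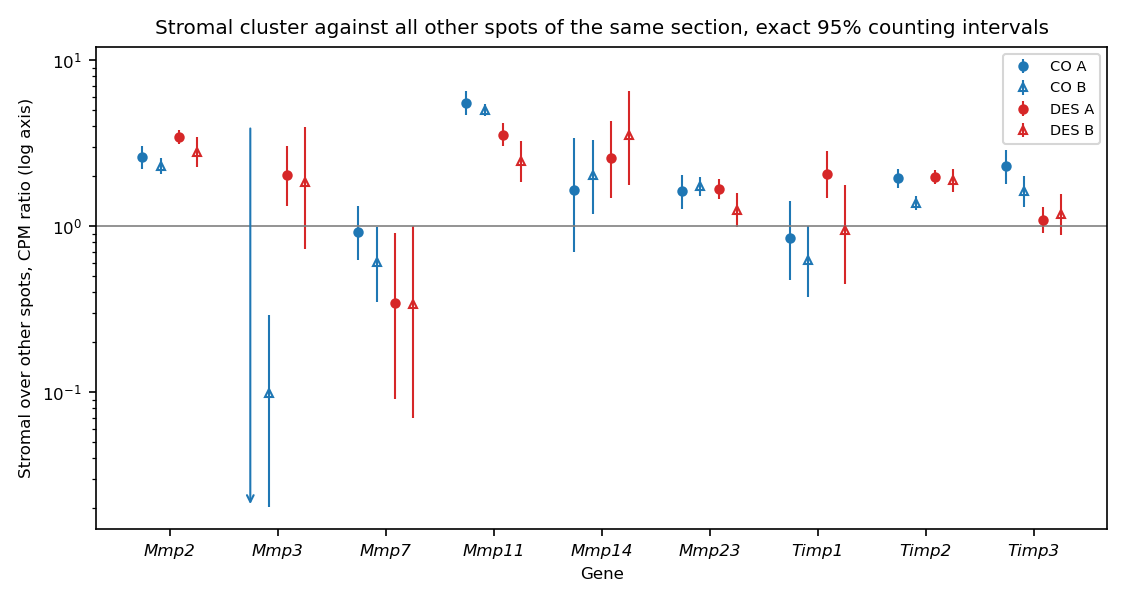
Ratio of the level in the stromal cluster to that in all other spots of the same section (log axis, grey line at 1) for 9 members, with exact 95% counting intervals; the arrow for Mmp3 in CO A marks 0 stromal UMIs and the upper bound of 4.11. Mmp11 lies between 2.48 and 5.52 in all 4 sections, and Mmp3 lies below 1 in CO B and at 1.85 to 2.04 in DES.

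Muscle-rich spots were the 15% of each section with the highest score of muscle markers less the mean of the epithelial and stromal scores. In DES B 48 of these 204 spots were also in the stromal cluster, against 2 in DES A and 0 in both CO sections. Here 0 of the 8 members tested passed, against 0.783% of 9581 genes higher and 0.407% lower, and 0 passed with DESeq2. Timp1 stood at 51.1, 71.3, 37.9 and 28.3 CPM, both CO sections above both DES sections (log2 difference -1.07, SE 0.32, edgeR adjusted p = 0.179). It passed without the filter (0.0365), with 25% of spots (0.0463) and without CO A (-1.32, 0.000442), over a range of 0.000442 to 0.849. Mmp3 stood at 5.06, 49.7, 45.5 and 72.0 CPM, with CO A alone low, and its difference of 0.96 (SE 0.77, adjusted p = 0.655) was 3.36 (7.21e-10) without CO B and 0.06 (0.948) without CO A. The CO sections likewise decided Mmp11 and Timp2, for which no direction can be read. The Mmp11 difference of -0.64 (edgeR adjusted p = 0.647) was -1.25 (0.000629) without CO A and 0.35 (0.567) without CO B. That of Timp2, -0.32 (edgeR adjusted p = 0.715), was -0.67 and 0.12 in the same order. Mmp23 stood at 117, 195, 211 and 244 CPM, both DES sections above both CO sections. Its difference of 0.37 did not pass (edgeR adjusted p = 0.667), and was 0.02 without CO A and 0.79 without CO B. Muscle markers in these spots were 46960 and 49023 CPM in CO against 27061 and 22557 CPM in DES, and their part was not tested.

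**Figure D5:**
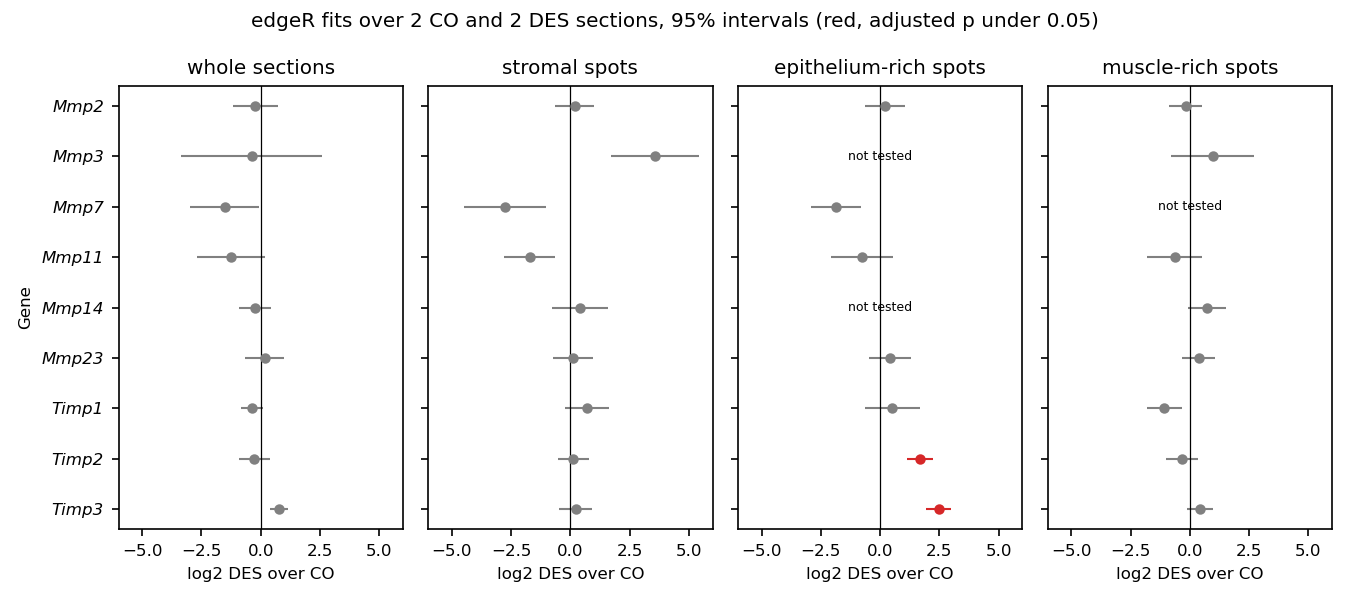
Log2 difference of DES from CO with 95% intervals from edgeR over 2 CO and 2 DES sections, for 9 members in whole sections and 3 sets of spots (red, adjusted p under 0.05). The 2 red points are Timp3 (2.47) and Timp2 (1.69) in epithelium-rich spots, and members under the filter on low counts are marked as not tested. In stromal spots Mmp3 met that filter through DES alone and Mmp7 through CO alone, so their points there are a description.

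The wider protease system was followed in 4 lists of genes. Of 17 other metalloproteinases, 7 could be tested over whole sections, and leaving aside Mmp12, described below, 1 of the other 6 rose and 2 fell, against the 2.67% and 2.63% of all genes given above for whole sections. Mmp15, a membrane-type metalloproteinase, stood at 16.8, 26.9, 87.3 and 91.9 CPM (log2 difference 1.83, SE 0.26, edgeR adjusted p = 0.0319). Mmp12, the elastase of macrophages, had 2 UMIs in each CO section against 1636 and 309 in the DES sections. It met the low-count filter through DES alone, so that it had to differ to be tested, and it is given as a description with no fold or test. Mmp17 stood at 75.6, 124, 22.0 and 27.7 CPM (-2.20, adjusted p = 0.0308) and Mmp19 at 34.7, 52.7, 18.5 and 12.3 CPM (-1.71, adjusted p = 0.0459). For Mmp15, Mmp17 and Mmp19 the sections of CO and DES did not overlap, in whole sections whose muscle and basal content also differed.

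The ADAM and ADAMTS list holds 18 genes, most of them proteases, cousins of the metalloproteinases that shed membrane proteins or cut proteoglycans. Of these 18 genes 1 rose and 4 fell over whole sections, again against 2.67% and 2.63% of all genes. Adam28 stood at 10.3, 7.07, 63.4 and 47.9 CPM (log2 difference 2.46, edgeR adjusted p = 0.0231), while Adam33, Adamts1, Adamts9 and Adamts12 fell by 2.15, 2.15, 2.01 and 1.92 on the log2 scale. In epithelium-rich spots 14 of these genes were tested. Leaving aside Adam33, Adam15 (1.45) and Adam28 (1.86) rose, and Adamts9 (-2.16) and Adam12 (-2.15) fell (edgeR adjusted p = 0.0242, 0.0161, 0.0260 and 0.0425 in this order). Of all genes there 3.35% were higher and 1.92% lower. Adam33 was lower in DES there, but it met the low-count filter through CO alone. It had to differ to be tested, so it is given as a description with no fold or test. None of Adam15, Adam28, Adamts9 and Adam12 passed with any section left out. Their log2 differences then ran from 1.37 to 1.54, 1.77 to 1.93, -2.37 to -1.95 and -2.45 to -1.91 in this order. The median of this list was -1.26 over whole sections, against -0.01 over all genes tested, and that of the 9 members tested was -0.26. The medians of the other 3 lists were -0.12 for the metalloproteinases, 0.38 for the plasminogen system and -0.38 for the surface genes. Over whole sections muscle markers were 13345 and 14168 CPM in CO against 3077 and 3458 CPM in DES. Stromal markers were 1457 and 1102 CPM in CO against 729 and 448 CPM in DES. The part of either in the falls of the ADAM and ADAMTS genes was not tested.

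In the plasminogen system, which activates several metalloproteinases, 6 of 9 genes could be tested over whole sections. Serpinb2, an inhibitor of plasminogen activators, had 0, 3, 222 and 103 UMIs and, like Mmp12, met the filter through DES alone, so it too is only described. The other 5 did not pass in edgeR. Of 8 genes that control metalloproteinases at the cell surface, Cav1 fell (115, 190, 54.4 and 34.5 CPM, difference -1.99, edgeR adjusted p = 0.0443). Cav1 stood at 325 and 463 CPM in the muscle-rich and 7.29 and 10.4 CPM in the epithelium-rich spots of CO, and muscle markers over whole sections were 13345 and 14168 CPM in CO against 3077 and 3458 CPM in DES. The part of muscle in the Cav1 difference was not tested. In epithelium-rich spots Mmp15 (18.4, 26.2, 95.6 and 113 CPM, difference 1.94, adjusted p = 0.0224) also rose, with an adjusted p from 0.0478 to 0.0963 when a section was left out. Serpinb2 had 0 UMIs in CO against 62 and 39 in DES there. In stromal and muscle-rich spots 0 of 28 and 0 of 31 list genes tested passed in edgeR. Of all genes there, 0.796% and 0.783% were higher and 0.673% and 0.407% lower. Of the list genes whose test over whole sections is given here, 0 passed in edgeR without DES A or without DES B, fits in which 14 and 3 genes of the whole table passed.

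Across the 40 spot clusters of the 4 sections the members varied in different ways. Over these clusters the Pearson correlation of log2(CPM + 1) was 0.78 for Timp2 with Timp3, 0.76 for Timp2 with Mmp2, 0.75 for Timp2 with Mmp14 and -0.62 for Mmp3 with Mmp7, a description of clusters that share libraries and differ in depth. Among 9767 genes with a mean of at least 10 CPM, the genes most like each member were Eva1b and Col1a1 for Mmp2 (r = 0.92 and 0.87) and Plod2 and Vamp5 for Mmp14 (0.89 and 0.87). They were Rabac1 and Prelp for Mmp3 (0.87 and 0.83), Hgfac and Csf3 for Mmp7 (both 0.84), Irf7 and Miip for Mmp11 (0.88 and 0.87), and Fndc5 and Sirt2 for Mmp23 (0.82 and 0.75). For the inhibitors they were S100a4 and Shisa4 for Timp1 (0.89 and 0.87), Lgals1 and Aebp1 for Timp2 (0.88 and 0.87) and Rbms3 and Mgp for Timp3 (0.84 and 0.82). Timp4, at a mean of 0.0970 CPM, had no gene above 0.44.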

How the data were processed

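The authors aligned the reads to mm10 with Cell Ranger 3.0.1 (10x 3′ libraries) and Space Ranger 1.2.2 (Visium), per the labels and the study's methods, and deposited raw UMI counts per gene and cell or spot. Cell types, epithelial clusters and spot clusters are other columns of the authors' deposited annotation. Of the annotated cells, 350 without counts were left out, 0 per-sample columns were unused, and no doublet caller was run here. The members and gene lists were chosen with earlier results of these data known. All 10 members are named, genes of the 4 lists where they passed, and for each member the 2 genes most like it over 40 spot clusters.

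Counts were summed and scaled to CPM in Python 3.11.15. For cells, exact 95% Poisson intervals were given, shares of cells were taken after thinning to 3000 UMIs, and no test was made. For sections, edgeR 4.0.16 (quasi-likelihood, TMM, low-count filter, all genes, adjusted p under 0.05) compared 2 DES with 2 CO sections. The difference of stromal enrichment used stromal and other spots with section as a factor. DESeq2 1.42.0, its size factors, no filter, other spot choices, a replicate block and each section left out were alternatives. Section letters pair nothing in the labels. Intervals and floors (3 counts) cover counting error only. Gene positions are from GENCODE M21 (GRCm38) and promoters from RefSeq (GRCm38.p6).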

Additional observations from a re-analysis of the deposited data

Results flagged for a closer look

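The enrichment of a gene in the stromal cluster over the other spots of the same section differed between DES and CO, by edgeR's test of the difference itself, for 1 of 9 members and 4 of 39 list genes tested, all higher in DES, against 2.58% of 13542 genes higher and 0.783% lower. The log2 differences were 4.48 for Mmp3, 5.54 for Adam33, 3.94 for Mmp17, 1.60 for Cav1 and 1.64 for Adamts2 (edgeR adjusted p = 0.000169, 6.66e-05, 2.65e-07, 0.00105 and 0.000259). Adam33 stood in the stromal clusters at 0 and 2.17 CPM in CO (A, then B) and at 11.8 and 14.4 CPM in DES, and Mmp17 at 12.53, 13.007, 26.6 and 60.6 CPM. Adam33 had 0 UMIs in the stromal cluster of CO A. In the comparison of stromal spots alone it fell under the low-count filter and was not tested. Cav1, the coat protein of caveolae, stood there at 94.9, 125, 86.7 and 80.8 CPM and Adamts2, which trims procollagens, at 172, 158, 213 and 101 CPM. The stromal levels of Cav1 were thus lower in both DES sections, although its enrichment was higher (stromal log2 difference -0.45, edgeR adjusted p = 0.627). Those of Adamts2 overlapped between groups. With stromal spots taken by marker score Mmp17 gave 0.89 (adjusted p = 0.165, range 4.98e-16 to 0.165) and Mmp3 0.40 (0.829, range 8.39e-07 to 0.829), while Adam33, Adamts2 and Cav1 passed in all 8 alternatives, at log2 differences of 1.87 to 11.03 (Adam33), 1.223 to 1.805 (Adamts2) and 0.96 to 1.95 (Cav1). Muscle markers outside the stromal cluster were 13927 and 15397 CPM in CO and 3124 and 3279 CPM in DES. Inside it they were 888 and 700 CPM in CO and 2705 and 8369 CPM in DES. The part of muscle in these differences was not tested.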

How the results depend on the processing

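The numbers of genes passing in edgeR were 747 over whole sections, 131 in stromal, 605 in epithelium-rich and 114 in muscle-rich spots and 456 for the stromal enrichment. With DESeq2 they were 1791 (whole), 1028 (epithelium-rich), 184 (muscle-rich) and 207 (enrichment). Without a filter 714 (stromal) and 742 (muscle-rich) passed, with spots chosen by marker score 268 (stromal) and 262 (enrichment), and with 25% of spots 606 (muscle-rich). With each section left out the counts ran from 3 to 2819, 40 to 357, 0 to 237, 64 to 1295 and 328 to 646. A lone section was then assumed to vary like the others. The section letter as a replicate block gave 527 over whole sections, 453 in stromal, 815 in epithelium-rich and 151 in muscle-rich spots, but same-lettered sections share only a letter (correlation of their deviations -0.025, 0.090, 0.039 and -0.020).

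Among cells, 0 mesothelial members were 2-fold higher and 0 lower when thinned or averaged per cell. Without the gland clusters, 2 non-basal members were 2-fold lower, and Mmp7 turned from 0.338 to 1.09. Mmp3 over whole sections ran from -1.31 (without CO A) to 2.81 (without CO B), a turn in direction. The cause of these changes was not tested. Having 1 library per condition and 2 sections per group limits every comparison, and Mmp3 and Mmp7 rest on 0 to 31 UMIs in stromal spots. Adam33 had 0 UMIs in the stromal cluster of CO A.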

Other observations

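The list genes described in sections were read in different cells. Mmp12 stood at 422 CPM in the Lyz2-high myeloid cells of DES, 157 CPM in other DES myeloid cells and 60.0 CPM in CO myeloid cells. Serpinb2 stood at 25.3 CPM in DES basal cells, against 1.94 CPM in non-basal DES and 0.46 CPM in CO epithelial cells, and at 25.8 and 18.1 CPM in the cells labelled lymphocytes of CO and DES. Mmp15 stood at 31.98 CPM in basal cells, 18.5 CPM in non-basal DES and 13.7 CPM in CO epithelial cells. Adam28 followed the same order, at 57.1, 27.3 and 24.0 CPM. In mesothelial cells Adam33 stood at 137 CPM in CO and 149 CPM in DES, and Cav1 at 981 and 484 CPM.

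Cells without a cell type, 20134 in CO and 6611 in DES, enter no comparison. Mmp2 stood in them at 143 and 45.7 CPM, Mmp7 at 38.2 and 14.5 CPM, Mmp11 at 8.72 and 7.89 CPM, and Timp3 at 259 and 97.2 CPM.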
